A study of Danio rerio with 10 samples.

Results

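Globin genes encode the alpha and beta protein chains of hemoglobin. On the zebrafish array used here, 10 of the 15502 probe sets tested belonged to them. They were taken as every probe set whose annotated or current symbol starts with hbae, hbbe, hbaa or hbba. A probe set is a group of short probes that together give 1 value for a transcript. They read 11 globin genes, out of 9030 genes with an Entrez ID on the array. Of the 10, 6 carried 1 gene symbol and 4 listed several. The prefixes hbae and hbbe name embryonic alpha and beta chains, and hbaa and hbba name the adult ones, so the rule took 7 embryonic and 3 adult probe sets.

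The arrays measured whole wild-type zebrafish embryos at 72 h after fertilization. All had been injected at the 1- to 2-cell stage with 1 to 2 nL of a morpholino (antisense oligonucleotide) at 130 micromol/L. The control morphants received a control morpholino, the Atg7 morphants one against the autophagy enzyme Atg7 and the Bdh2 morphants one against the dehydrogenase Bdh2. Dual morphants received those against Atg7 and Bdh2 together. The concentration and volume are given once per group, so the dose of each morpholino in dual embryos is not known here. There were 3 arrays of control, 3 of Atg7 and 3 of dual morphants, and 1 of Bdh2 morphants. The labels do not say which part of each transcript was targeted, how many embryos made up a sample, or whether replicates came from separate clutches. Injection is transient and reaches the whole embryo, so no cell type was singled out. The p-values therefore cover only sample-to-sample spread, part or all of which may be technical.

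Hemoglobin is assembled from alpha and beta chains around heme and fills the red blood cell. Zebrafish, like other vertebrates, use embryonic globins in the first wave of red cells and switch later to adult ones, and unlike mammals they keep alpha and beta genes side by side. In RefSeq's gene table (assembly GRCz12tu), used here for names and gene order, 11 of these genes lay in 1 cluster and 4 in another on a different chromosome. The array read 9 of the first cluster (hbaa1, hbba1, hbba2, hbae1.1, hbae1.2, hbae3, hbbe1.1, hbbe1.2 and hbbe1.3). From the second, where the order was hbae4, hbbe3, hbbe2 and hbae5, it read hbbe3 and hbbe2. hbaa2, hbae1.3, hbae4 and hbae5 were not analysed here.

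Values are log2 intensities as the authors deposited them, so a difference of 1 is a 2-fold change. Array medians lay between 6.33 and 6.38, and the highest value on an array between 14.6 and 14.9. Differences are given with the standard error of a limma fit across all probe sets, and a probe set is called changed where its Benjamini-Hochberg adjusted p is below 0.05. Of the targeted genes, atg7 had no named probe set, and bdh2 was read at 7.07 to 7.27 in control, 7.18 to 7.22 in Atg7, 7.17 to 7.38 in dual arrays and 7.47 on the Bdh2 array. Morpholinos can act without changing the abundance of the targeted RNA, and the array therefore gives no test of the group names. The actin control probe sets, whose 3 prime minus 5 prime difference is a sign of RNA quality, parted the controls from the other arrays. That difference was 3.41 to 3.53 in control arrays, 3.86 to 4.05 in Atg7 arrays, 3.83 to 3.91 in dual arrays, with 4.30 in the Bdh2 array, so Atg7 and dual arrays overlapped. The same difference for gapdh was 1.53 to 1.63 in control and 1.53 to 1.77 in Atg7 arrays, which overlapped, and 1.67 to 1.72 in dual arrays, with 1.70 on the Bdh2 array. The actin difference therefore moved with every comparison against controls described here. It also differed between the Bdh2 array and the dual arrays, so it moved with dual minus Bdh2 too. Its part in any of these results was not tested.

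In control embryos the embryonic globins were among the brightest probe sets and the adult ones were dim. The brighter probe set of hbae3, an embryonic alpha chain, stood at 14.02, 14.08 and 13.996, and the dimmer one at 13.55, 13.55 and 13.51. The probe set shared by the embryonic beta chains hbbe1.1, hbbe1.2 and hbbe1.3 stood at 14.13, 14.11 and 14.05. These levels were in the top 1% of the array and within 2 units of its highest value, so how far such bright signals can still respond to the amount of RNA was not tested.

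hbbe3 and hbbe2, the embryonic beta chains of the smaller cluster, were read at 12.22, 12.14 and 12.21 and at 10.96, 10.94 and 10.91 in controls. The dimmer hbae3, the brighter hbae1.1/hbae1.2, the hbbe1.1/hbbe1.2/hbbe1.3 and the hbba1 probe sets carry the suffix s_at, which marks probes shared between transcripts. The adult probe sets were hbaa1, hbba2 and the one that lists hbba1 with ba1l and ba2, under separate Entrez IDs. They lay below the array median in every array, from 4.63 to 5.61.

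**Figure D1:**
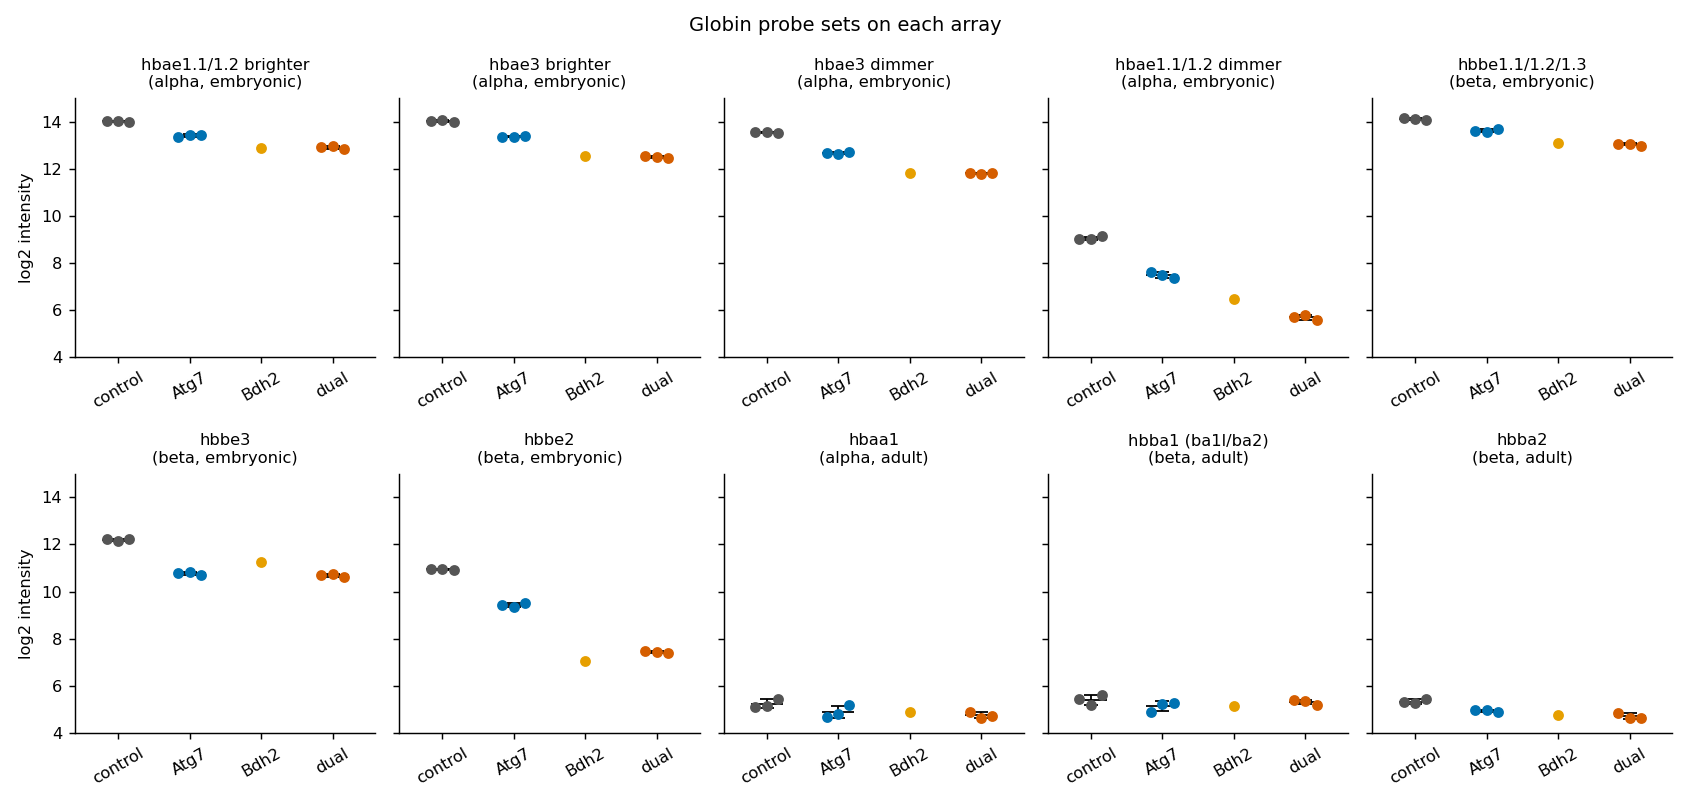
The plot of log2 intensity by group shows each of the 10 globin probe sets (points are arrays, bars are the mean and SD of 3 arrays, and the lone Bdh2 array has no bar). In all 7 embryonic probe sets the control arrays lie above every other array, while the adult ones stay between 4.63 and 5.61.

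Atg7 morphants were set against controls to see what the Atg7 morpholino does alone. Every embryonic globin probe set fell, and the fall was unequal between genes. hbbe2 stood at 9.43, 9.36 and 9.50 in Atg7 arrays, so it fell by 1.504 ± 0.060 (2.84-fold lower, adjusted p = 4.18e-08). hbbe3 stood at 10.78, 10.83 and 10.70, so it fell by 1.42 ± 0.062 (2.68-fold lower, adjusted p = 9.28e-08). For both genes the 3 Atg7 arrays lay below the 3 control arrays with no overlap.

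The alpha chain hbae3 was at 13.35, 13.32 and 13.38 in its brighter probe set, which fell by 0.68 ± 0.057, and its dimmer probe set fell by 0.88 ± 0.054. The hbbe1.1/hbbe1.2/hbbe1.3 probe set, at 13.59, 13.54 and 13.67, fell by 0.50 ± 0.060, the smallest fall among the embryonic ones. Here too the groups did not overlap.

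Both probe sets that list the alpha chains hbae1.1 and hbae1.2 fell, by amounts that did not match. The brighter went from 14.03, 14.02 and 13.98 to 13.34, 13.44 and 13.43, so it fell by 0.60 ± 0.061. The dimmer went from 9.004, 9.03 and 9.13 to 7.61, 7.50 and 7.37, so it fell by 1.56 ± 0.079. The annotation gives both genes for each probe set, so neither value is assigned to 1 gene.

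Counting all 10 globin probe sets, 8 were lower in Atg7 than in control arrays and 0 were higher, where 3.64% of all probe sets tested were lower and 6.26% higher. Their median difference was -0.64, against -0.0092 over all 15502. Groups did not overlap, with Atg7 below, in 8 of the 10 and in 14.4% of all probe sets. Ordered from the largest fall, the dimmer hbae1.1/hbae1.2 probe set was number 2 of the array, hbbe2 number 3 and hbbe3 number 5. Of the adult chains, hbba2 fell by 0.39 ± 0.076 (adjusted p = 0.00755). hbaa1 was at -0.34 ± 0.13 and the hbba1 probe set at -0.28 ± 0.12 (adjusted p = 0.114 and 0.158). The hbaa1 difference was -0.49 with adjusted p = 0.0258 without Atg7 replicate 3, which takes the count of lower probe sets to 9.

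In dual morphants the embryonic globins were lower still than in Atg7 morphants, with hbbe3 as the exception. hbbe2 stood at 7.47, 7.43 and 7.38, at -2.004 ± 0.060 relative to Atg7 arrays (4.01-fold lower, adjusted p = 3.73e-10). hbbe3 stood at 10.70, 10.75 and 10.63 and overlapped the Atg7 arrays (difference -0.075 ± 0.062, 95% interval -0.21 to 0.059, adjusted p = 0.388). These neighbours of the same cluster and the same chain type therefore had values that parted in dual arrays.

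The alpha chain hbae3 was at 12.52, 12.52 and 12.44 in its brighter probe set, at -0.86 relative to Atg7 arrays (adjusted p = 3.88e-07), and its dimmer probe set was also at -0.86. The brighter hbae1.1/hbae1.2 probe set was at 12.91, 12.97 and 12.81 and the hbbe1.1/hbbe1.2/hbbe1.3 one at 13.06, 13.04 and 12.98. These differences from Atg7 arrays were -0.51 and -0.57. The dimmer hbae1.1/hbae1.2 probe set was at 5.73, 5.78 and 5.56, below the array median, and differed by -1.80.

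Of the 10 globin probe sets 7 were lower in dual than in Atg7 arrays and 0 higher, where 17.2% of all probe sets were lower and 15.8% higher. Groups did not overlap, with dual below, in 7 of 10 and in 22.6% of all probe sets. The adult hbba2 was among the lower ones (-0.23, adjusted p = 0.0378). Its call was lost on leaving out control replicate 1, Atg7 replicates 1 or 2, or dual replicates 2 or 3 (adjusted p from 0.0512 to 0.135). It also ended with the arrays centred on their medians, with an intensity trend in the variance and with the replicate number as a block (adjusted p = 0.0554, 0.0728 and 0.0579).

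Against the control arrays, which both comparisons with Atg7 and dual morphants share, 9 of the 10 globin probe sets were lower in dual arrays and 0 higher, where 15.9% of all probe sets were lower and 16.7% higher. All 7 embryonic ones lay below the controls without overlap, as did 23.3% of all probe sets, from -1.07 for hbbe1.1/hbbe1.2/hbbe1.3 to -3.51 for hbbe2, with a median of -1.54 over the embryonic ones. hbbe2 was 11.4-fold lower than in controls and number 6 of the array by size of fall, and the dimmer hbae1.1/hbae1.2 probe set (-3.36) was number 7. hbaa1 was at -0.49 (adjusted p = 0.011, and -0.38 with adjusted p = 0.05005 without control replicate 3). The hbba1 probe set was at -0.10 (adjusted p = 0.561).

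**Figure D2:**
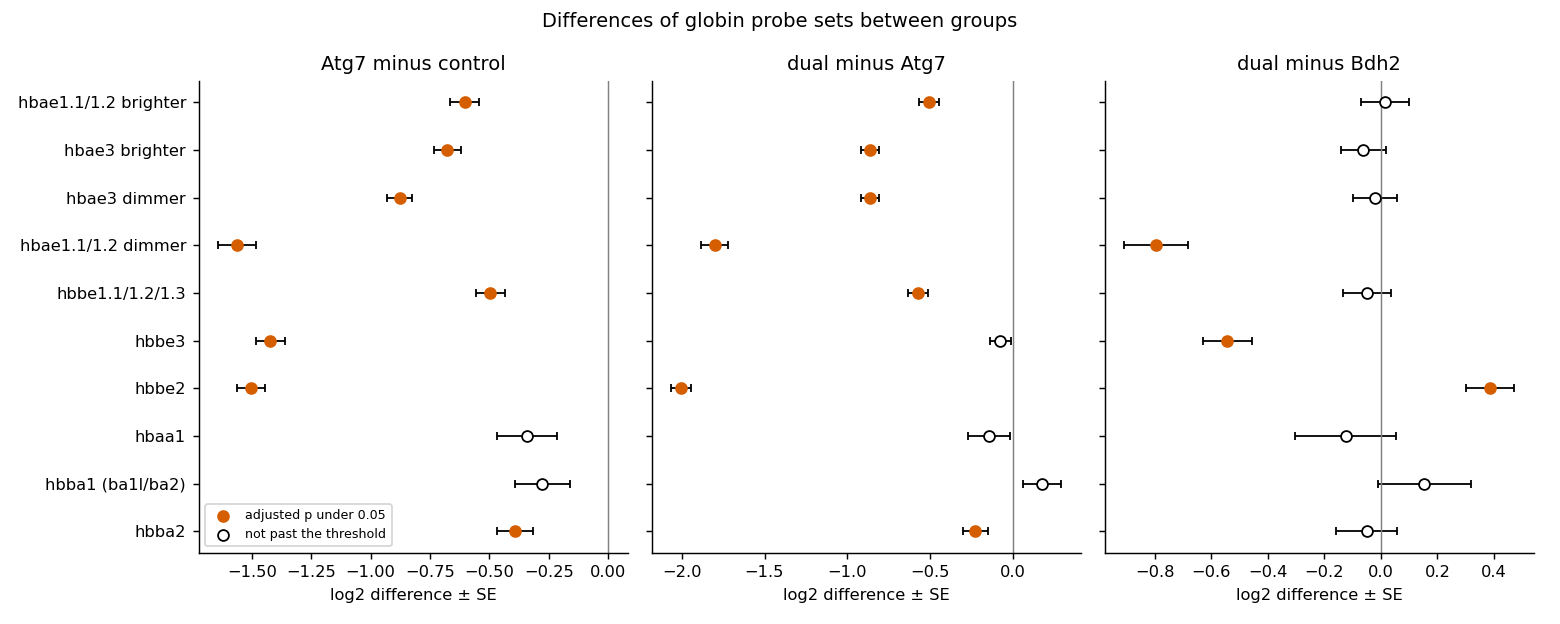
The plot of log2 differences (point, with its standard error as a bar) sets the 10 globin probe sets against each other in Atg7 minus control, dual minus Atg7 and dual minus Bdh2. hbbe3 differs from zero by -1.42 in Atg7 minus control and by -0.075 in dual minus Atg7, whereas hbbe2 differs in both, by -1.504 and -2.004.

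The lone Bdh2 array has no replicate, and the fit assumes that it varies as the other groups do. hbbe2 was lowest there, at 7.04, a difference from the control mean of -3.895 ± 0.085 (14.9-fold lower, adjusted p = 4.52e-11). hbbe3 was at 11.24, between the control arrays and all Atg7 and dual arrays (difference from control -0.95 ± 0.087, adjusted p = 9.65e-06). hbae3 was at 12.55 and 11.82 in its probe sets, the brighter hbae1.1/hbae1.2 at 12.88, the dimmer at 6.48 and hbbe1.1/hbbe1.2/hbbe1.3 at 13.07. Of the 10 probe sets 8 were lower than in controls and 0 higher, where 13.2% of all probe sets were lower and 15% higher.

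Between dual arrays and the Bdh2 array 4 of the 7 embryonic probe sets did not pass the threshold. Their 95% intervals, from this fit, bound the difference. For hbae3 they ran from -0.24 to 0.11 (brighter) and from -0.19 to 0.15 (dimmer). They ran from -0.17 to 0.20 for the brighter hbae1.1/hbae1.2 probe set and from -0.23 to 0.14 for hbbe1.1/hbbe1.2/hbbe1.3. The remaining 3 passed the threshold. hbbe3 was lower in dual arrays (-0.54 ± 0.087, adjusted p = 0.00179), as was the dimmer hbae1.1/hbae1.2 probe set (-0.80 ± 0.11, adjusted p = 0.000788). hbbe2 was higher by 0.39 ± 0.085 (adjusted p = 0.0113). Over the array 5.53% of probe sets were lower and 6.53% higher.

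The study's 4 groups allow a test of whether the Atg7 morpholino made the same difference with and without the Bdh2 morpholino. Its dose in dual embryos is not known here and may not equal that in Atg7 morphants. An unequal dose cannot be told apart from an effect of the Bdh2 morpholino. The tested value is dual minus Bdh2 minus (Atg7 minus control), on the log2 scale, and it rests on the lone Bdh2 array. The spread of that arm cannot be estimated and is taken from the other groups. Anything peculiar to that array enters the value of every probe set, so the calls are not independent of each other. The Bdh2 array also had the highest actin 3 prime minus 5 prime difference (4.30), whose part in these values was not tested. The fitted value was above zero and past the threshold in all 7 embryonic probe sets, where 3.81% of all probe sets were, and in 0 of the 3 adult ones. For hbbe2 it was 1.89 ± 0.10 (adjusted p = 2.76e-06), as the Atg7 morpholino went with a difference of -1.504 alone and of 0.39 beside the Bdh2 morpholino. For hbbe3 it was 0.88 ± 0.11 (adjusted p = 0.000441), with -1.42 alone and -0.54 beside it. For hbae3 it was 0.62 and 0.86 in the brighter and dimmer probe sets. The smallest, 0.45 ± 0.10 for hbbe1.1/hbbe1.2/hbbe1.3 (adjusted p = 0.0208), lost its call without control replicate 2 or dual replicate 2 (adjusted p = 0.0522 and 0.0504) and with the replicate number as a block (adjusted p = 0.0642).

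Values above zero were not particular to the globins. The red cell genes slc4a1a, which encodes band 3, and alas2, of heme synthesis, were at 1.66 and 1.04 (adjusted p = 4.35e-06 and 0.000544). The myeloid genes lyz (lysozyme) and mpx (myeloperoxidase) were at 1.05 and 1.07 (adjusted p = 7.80e-05 and 0.000276). In the red cell membrane and cytoplasm list 6 of 12 genes were higher and 0 lower, and in the myeloid list 4 of 11 were higher and 2 lower, where 4.32% of all probe sets were lower.

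**Figure D3:**
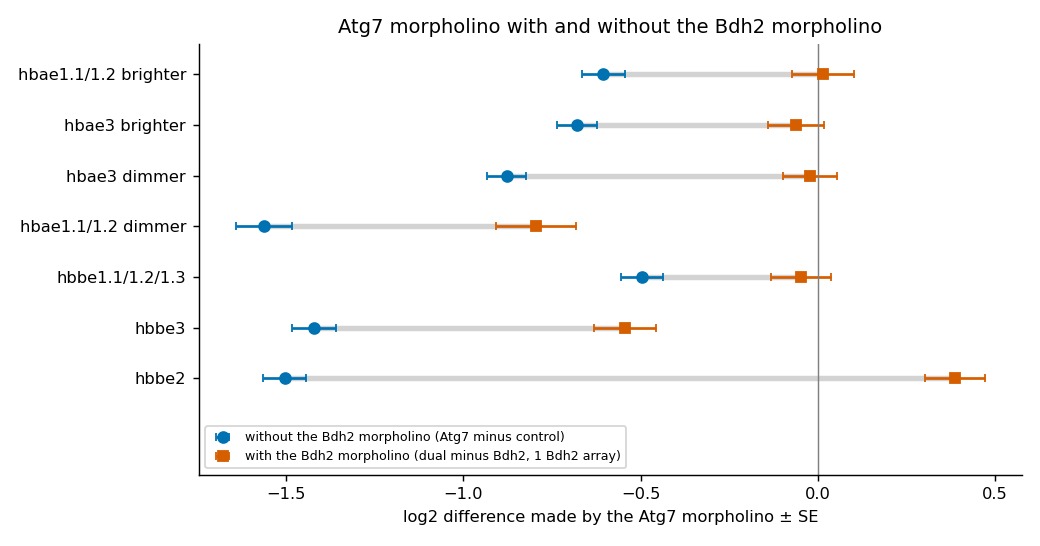
The plot sets, for each embryonic probe set, the log2 difference made by the Atg7 morpholino without the Bdh2 morpholino (circles) beside that with it (squares, against the lone Bdh2 array), with standard errors as bars. Every square lies to the right of its circle. That of hbbe2 is at 0.39 against -1.504.

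Differences taken between genes within an array do not change when all values of that array shift by the same amount. They can change under a scaling that depends on intensity. They were used to ask whether genes fell by unequal amounts, with exact permutation tests, two-sided, which cannot go below 0.1 for 3 arrays against 3. hbbe2 minus hbbe3 was -1.26, -1.21 and -1.30 in controls, -1.35, -1.46 and -1.20 in Atg7, -3.22, -3.32 and -3.25 in dual arrays, with -4.20 on the Bdh2 array. Control and Atg7 arrays overlapped (exact permutation p = 0.5), whereas every dual array lay below both (exact permutation p = 0.1 for each, the smallest possible). The shift of this difference from Atg7 to dual arrays was -1.93.

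hbbe2 minus hbae3, a beta against an alpha chain, parted the 3 groups. It was -3.10 ± 0.043 in controls, -3.92 ± 0.039 in Atg7 and -5.06 ± 0.020 in dual arrays (SD, n = 3 each), with -5.51 on the Bdh2 array. Each pair of triplicate groups was separated without overlap (exact permutation p = 0.1, or 0.115 adjusted over the 15 such tests). With the dimmer hbae3 probe set the Atg7 minus control shift was -0.63 in place of -0.83. Both hbae3 probe sets were brighter than hbbe2 on every array, and the part of brightness in these shifts was not tested.

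Alpha chains as a class did not part from beta chains as a class in a stable way. The alpha probe sets with 1 symbol are both of those of hbae3 and the adult hbaa1. The beta ones are hbbe3, hbbe2 and the adult hbba2. Over these, the mean of the alpha values minus that of the beta values was 1.45 ± 0.040 in controls, 1.92 ± 0.12 in Atg7 and 2.07 ± 0.037 in dual arrays (SD, n = 3 each), with 2.07 on the Bdh2 array. This is a description with no test. The shift from control to dual arrays was 0.62, and it was -0.29 once the probe sets with several symbols were included. Those with several symbols include the adult hbba1 probe set, and over the embryonic probe sets alone, a choice made after seeing the data, the shift with several symbols counted was 0.086. The class difference in dual minus control therefore depended on which probe sets were counted. Among embryonic beta chains alone the fall in dual minus control ranged from -1.07 to -3.51, and among embryonic alpha chains from -1.11 to -3.36.

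Probe sets of the same gene or genes also parted. The brighter minus the dimmer hbae1.1/hbae1.2 probe set was 4.96 ± 0.093 in controls, 5.91 ± 0.17 in Atg7, 7.21 ± 0.039 in dual arrays (SD, n = 3 each), with 6.40 on the Bdh2 array. The brighter minus the dimmer hbae3 probe set moved less, from 0.49 ± 0.030 in controls to 0.69 ± 0.012 in Atg7 and 0.69 ± 0.057 in dual arrays. In each pair the control arrays lay below all others. Which probe set tracks the transcripts more closely was not tested.

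To place the globins among genes of red cell functions, 4 lists were used: the red cell membrane and cytoplasm, heme synthesis, iron supply, and erythroid transcription. The lists go by function and were not limited to genes active only in red cells, so their medians can include RNA of other tissues. Together they held 41 measured genes. In Atg7 minus control 11 of the 41 were lower and 4 higher (median -0.13). In dual minus control 19 were lower and 4 higher (median -0.17), and in dual minus Atg7 10 were lower and 2 higher (median -0.055). The shares lower and higher over all probe sets in these comparisons were 3.64% and 6.26%, 15.9% and 16.7%, and 17.2% and 15.8%. The embryonic globin medians in the same comparisons were -0.88, -1.54 and -0.86. Because the samples are whole embryos, fewer red cells and less RNA per red cell cannot be told apart.

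Among the genes with functions specific to red cells, slc4a1a, alas2 and cahz fell against controls. In Atg7 minus control slc4a1a, at -1.62, fell more than any globin probe set. There alas2 and cahz lay within the range of the embryonic globins, -1.56 to -0.50. In dual minus control slc4a1a, alas2 and cahz lay within that range, -3.51 to -1.07. In dual minus Atg7 only cahz, of these, was near the embryonic globin median of -0.86. Other members of the membrane and cytoplasm list differed. In Atg7 minus control and dual minus control epb41b was at -0.87 and -1.01, and sptb at -0.43 and -0.28. dmtn, at -0.096 and 0.019, was called in neither. slc4a1a encodes band 3, the chloride and bicarbonate exchanger of the red cell membrane. It stood at 9.48, 9.45 and 9.46 in controls, 7.89, 7.77 and 7.86 in Atg7, 7.65, 7.60 and 7.74 in dual arrays, with 7.63 on the Bdh2 array. Its level fell most from control to Atg7 arrays and differed little between Atg7 and dual arrays (-0.18 ± 0.061, adjusted p = 0.0414). alas2, whose product catalyses the first step of heme synthesis in red cells, was at -1.45, -1.895 and -0.45 in Atg7 minus control, dual minus control and dual minus Atg7. cahz, the red cell carbonic anhydrase, was at -1.04, -1.89 and -0.85.

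The erythroid transcription factor genes gata1a and klf1, which drive globin genes in red cell precursors, were read at low levels. gata1a was at 4.73 in controls, 4.14 in Atg7 and 3.98 in dual arrays (differences from control -0.59 and -0.74, adjusted p = 0.0039 and 0.00017). klf1 was at 5.01, 4.57 and 4.49 (-0.44 and -0.52, adjusted p = 0.0191 and 0.00206). In dual minus Atg7 neither passed the threshold (-0.16 and -0.076, adjusted p = 0.275 and 0.616). On the Bdh2 array gata1a was at 4.43 and klf1 at 4.50 (differences from control -0.30 and -0.51). The other members of the transcription list did not all go with them. Of its 14 measured genes 3 were lower and 2 higher in Atg7 minus control, where 3.64% and 6.26% of all probe sets were.

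The lists held genes that did not follow the globins, and their counts stand beside 15.9% lower and 16.7% higher over all probe sets. In the membrane and cytoplasm list 8 of 12 were lower and 2 higher in dual minus control, the higher ones being gpx1a, a glutathione peroxidase (0.31), and blvrb, a biliverdin reductase (0.84), which was named after its value was seen. The heme synthesis list had 4 of 9 lower and 0 higher. They were alas2, the porphyrin enzyme genes urod (-0.64) and cpox (-0.22), and slc25a38b (-0.36), whose product is a mitochondrial carrier. The iron supply list had 2 of 6 lower, the iron transporter gene slc11a2 (-0.36) and aco1 (-0.33), and 1 higher, tfa, which encodes transferrin (0.25). The transcription list had 5 of 14 lower and 1 higher, klf3 (0.27). In Atg7 minus control the genes of these lists called higher were aco1 (0.56), klf6a (0.35), klf3 (0.31) and gpx1a (0.25). Over all probe sets 6.26% were higher in that comparison. aco1 thus went opposite ways against controls in Atg7 and in dual arrays.

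**Figure D4:**
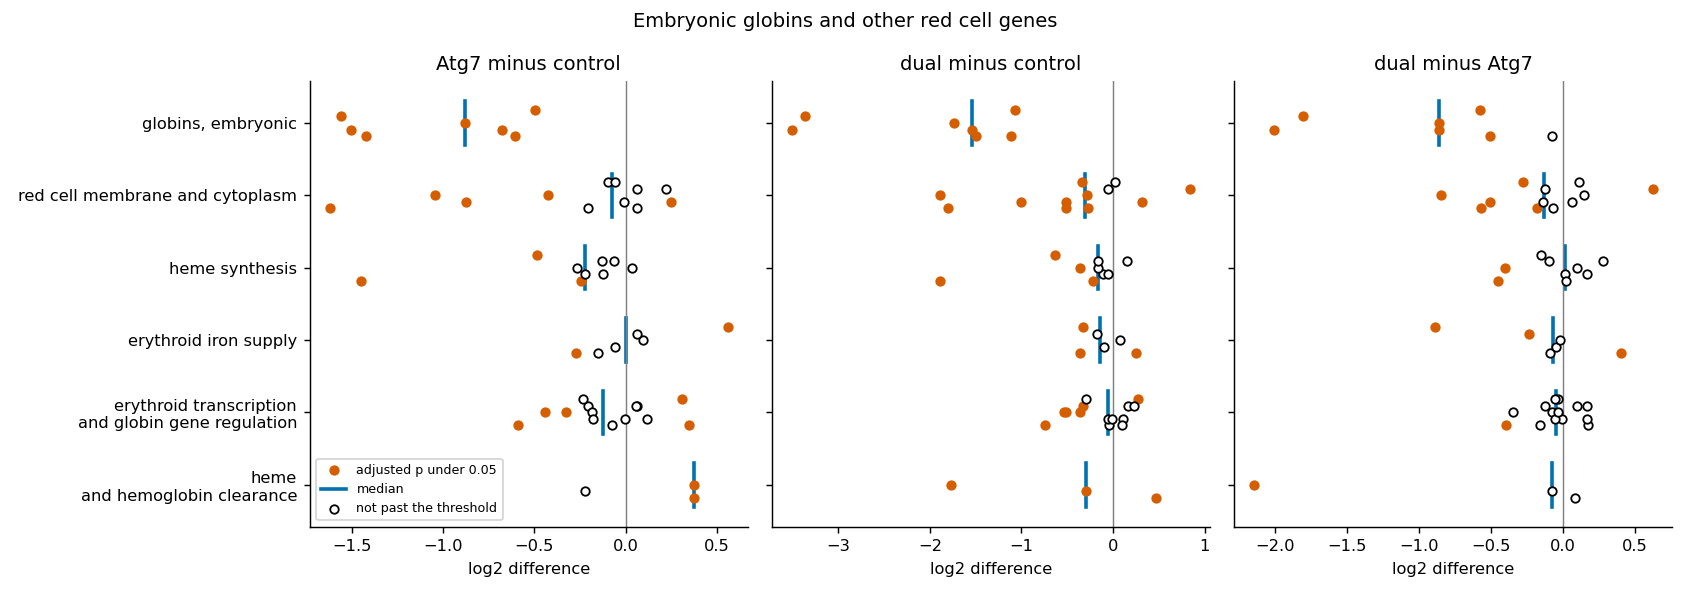
The plot shows the log2 difference of each gene (points, filled where adjusted p is under 0.05) in the embryonic globins and in 5 lists of red cell and heme genes, with each list's median as a bar. The horizontal scale differs between panels. The embryonic globin medians of -0.88, -1.54 and -0.86 lie left of those of every list shown.

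Set against slc4a1a within each array, a comparison added after its values were seen, the globins shifted by unequal amounts. The size of such a difference also reflects how strongly each probe set binds, so only its shift between groups is read. hbbe2 minus slc4a1a was 1.47 ± 0.025 in controls, 1.59 ± 0.049 in Atg7 and -0.24 ± 0.11 in dual arrays (SD, n = 3 each), with -0.59 on the Bdh2 array. It shifted by -1.83 from Atg7 to dual arrays, which did not overlap (exact permutation p = 0.1, the smallest possible). The brighter hbae3 probe set minus slc4a1a was 4.57 ± 0.055 in controls, 5.51 ± 0.048 in Atg7 and 4.83 ± 0.11 in dual arrays, with 4.93 on the Bdh2 array. That probe set lay near the highest values of the array, where its response was not tested. hbbe3 minus slc4a1a was 2.73 ± 0.028 in controls, 2.93 ± 0.11 in Atg7, 3.03 ± 0.13 in dual arrays, with 3.61 on the Bdh2 array. It overlapped between Atg7 and dual arrays (exact permutation p = 0.4).

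**Figure D5:**
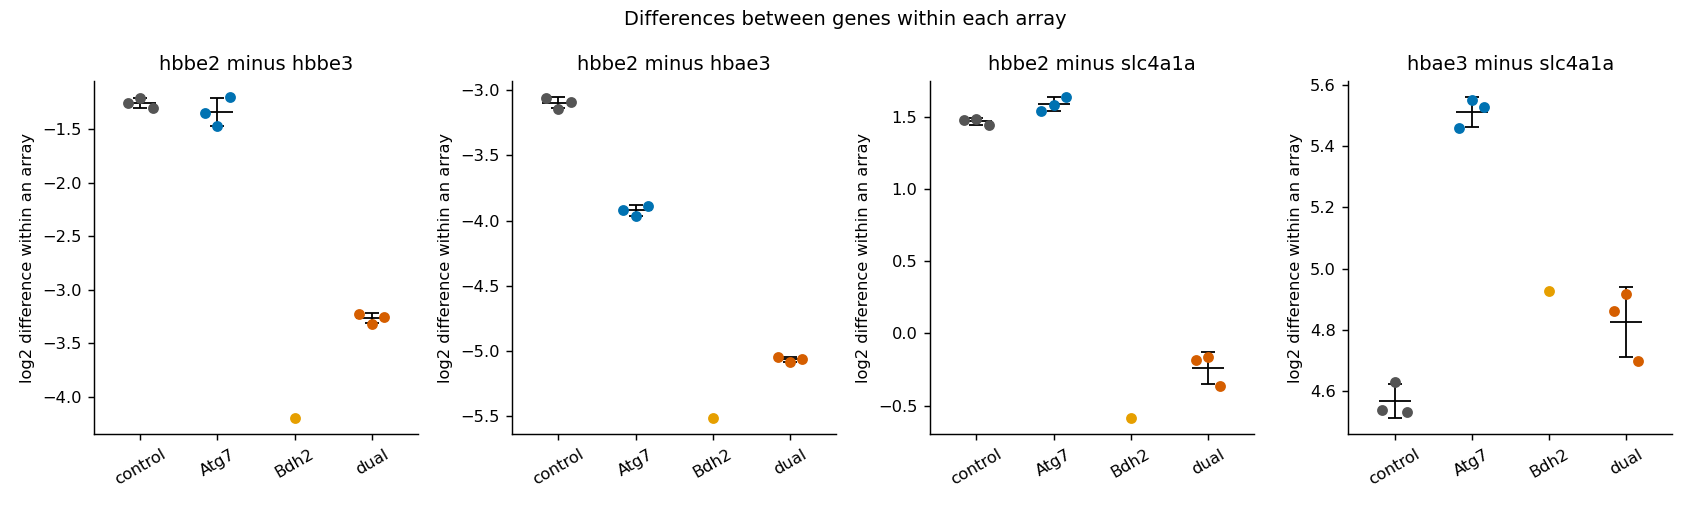
The plot shows log2 differences between genes within each array by group (points are arrays, bars are the mean and SD of 3 arrays). hbbe2 minus hbbe3 is -1.20 to -1.46 in the control and Atg7 arrays and -3.22 to -4.20 in the arrays with the Bdh2 morpholino.

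Genes for clearing heme and hemoglobin were sparsely read, with 3 of 11 listed genes measured. hp, which encodes haptoglobin, was higher by 0.38 in Atg7 and by 0.47 in dual arrays than in controls. cp, which encodes the copper ferroxidase ceruloplasmin, was at 0.37 in Atg7 minus control and -1.77 in dual minus control. slc48a1b, a heme transporter gene, was at -0.30 in dual minus control (adjusted p = 0.0218).

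Lists of markers of other blood-related cells were counted beside 3.64% lower and 6.26% higher over all probe sets in Atg7 minus control and 15.9% and 16.7% in dual minus control. The myeloid list (11 of 14 measured) had 4 lower and 1 higher in Atg7 minus control and 3 lower and 0 higher in dual minus control, with medians of -0.13 and -0.10. Its members went both ways: mmp13a, a matrix metalloproteinase gene, was at 1.49 in Atg7 minus control and -1.42 in dual minus control, and lyz at -0.50 and -0.41. On the Bdh2 array the median difference of the 11 from controls was -0.43, against 0.045 over all probe sets. The summed level of the myeloid list, as log2, was 11.21 to 11.26 in control and 11.20 to 11.25 in Atg7 arrays. It was 10.81 to 10.87 in dual arrays, with 10.61 on the Bdh2 array. The sum includes mmp13a, the 1 member called higher in Atg7 minus control, so a near-equal sum does not show steady members. The endothelial list (5 of 13 measured) had 0 called in Atg7 minus control and 2 lower in dual minus control, fli1 and kdrl, at -0.41 and -0.35. Its summed level was 9.39 to 9.49 in control, 9.26 to 9.34 in Atg7, 9.04 to 9.16 in dual arrays, with 9.13 on the Bdh2 array. The thrombocyte list (6 of 8 measured) had 0 called and 1 lower, which was fli1 again. Its summed level was 9.16 to 9.18 in control, 9.08 to 9.27 in Atg7, 8.97 to 9.10 in dual arrays, with 8.63 on the Bdh2 array. In controls itga2b and gp1bb were read at only 3.02 and 3.37, against 7.75 for f5, 7.48 for fli1 and 6.95 for thbs1b. The sum therefore rests mainly on f5, fli1 and thbs1b and is not read as a level of thrombocytes. On the Bdh2 array f5 was at 6.86 and fli1 at 6.76. The part of these cells in the globin results was not tested.

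Probe sets with 1 symbol were ranked by how closely their log2 values followed a globin gene, with the globins themselves left out. Of these 10789, those most like hbbe2 over the 10 arrays were acsl1a (Pearson's r = 0.989), pklr (0.985), aars1 (0.984), pvalb3 (0.982) and eno1a (0.981). Those most like the brighter hbae3 probe set were fahd2a (0.989), mat2aa (0.986), aars1 (0.983), acsl1a (0.980) and pgam1a (0.980). These are descriptions over arrays that share their groups. The red cell genes slc4a1a, alas2 and cahz were not among them.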

How the data were processed

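The authors deposited log2 intensities, 1 per probe set and array, with Affymetrix Expression Console named per the submitters' processing notes. That the scale is log2 was read from the values. The summarisation, background and normalization methods and any detection calls are not given in the sources used here. Array medians nearly coincide, so a change of all transcripts together would not show.

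Tests left out the 115 AFFX controls. Symbols came from the platform annotation, updated by Entrez ID through the RefSeq table of GRCz12tu. All 10 arrays in 4 groups were fitted in limma 3.58.1 (lmFit, then eBayes; R 4.3.3; 6 residual degrees of freedom), two-sided, with Benjamini-Hochberg adjustment over 15502 probe sets. The procedure was tested on simulated data. Lists use 1 probe set per gene, that with the highest mean.

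The members, lists and tests were chosen with earlier results of these data known. Genes outside the globins, apart from blvrb, dmtn and itga2b, were named by rule. Per list it took the 3 smallest p in dual minus control and the next 2 in Atg7 minus control. It also took the 5 highest correlations with hbbe2 and with hbae3. No sequence is shown, and the planned promoter search was not run. The precision is limited by the number of arrays.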

Additional observations from a re-analysis of the deposited data

Results flagged for a closer look

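In all 7 embryonic globin probe sets the fitted difference made by the Atg7 morpholino was not the same with and without the Bdh2 morpholino, past the threshold of the test of that difference (limma, adjusted over all probe sets). The value, dual minus Bdh2 minus Atg7 plus control, was 1.89 for hbbe2 and 0.88 for hbbe3 (adjusted p = 2.76e-06 and 0.000441). It was 0.62 and 0.86 for the brighter and dimmer hbae3 probe sets (adjusted p = 0.00257 and 0.000218). It was 0.62 and 0.77 for the brighter and dimmer hbae1.1/hbae1.2 probe sets (adjusted p = 0.00391 and 0.00523) and 0.45 for hbbe1.1/hbbe1.2/hbbe1.3 (adjusted p = 0.0208). The last lost its call with the replicate number as a block (adjusted p = 0.0642) and without control replicate 2 or dual replicate 2 (adjusted p = 0.0522 and 0.0504). All 7 rest on the same lone Bdh2 array, whose own spread cannot be estimated, so they are not independent of each other. Whether the Atg7 morpholino dose was equal in Atg7 and dual morphants is not known here. Values above zero were not particular to the globins, with slc4a1a at 1.66, alas2 at 1.04, lyz at 1.05 and mpx at 1.07. Other listed genes were below zero, among them mmp13a at -1.17 and aco1 at -0.72. The median over all probe sets was -0.032.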

How the results depend on the processing

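For single globin probe sets, 854 of 872 recomputed differences kept their direction and side of the threshold, 12 lost the call, 2 gained it and 4 changed sign. The sign changes were all in dual minus Bdh2 and uncalled. With quantile normalization the values were -0.032 for the brighter hbae1.1/hbae1.2 probe set, 0.0062 for hbbe1.1/hbbe1.2/hbbe1.3 and 0.0091 for hbba2. Without single replicates the first ranged down to -0.020 and up to 0.056. The replicate block (the replicate number as a term) changed 2 of 60 calls, hbba2 in dual minus Atg7 and hbbe1.1/hbbe1.2/hbbe1.3 in the departure from additivity (0.47). Residuals of same-numbered arrays correlated at -0.37 to 0.20, so the numbers were not taken as pairs. The block moved the array-wide count from 1536 to 1006 for Atg7 minus control and from 5041 to 4520 for dual minus control. It moved it from 5115 to 4541 for dual minus Atg7, from 4376 to 3394 for Bdh2 against control, from 1870 to 1144 for dual against Bdh2, and from 1261 to 708 for additivity.

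Leaving out probe sets whose suffix marks shared sequence left 6 globin probe sets. Of these 5 were called lower in Atg7 minus control and 4 in dual minus Atg7. Over all probe sets in the main fit 3.64% and 17.2% were lower in these comparisons. The alpha minus beta shift was least stable. With 1 probe set per gene it was 0.60 in Atg7 minus control and 0.86 in dual minus control. With several-symbol probe sets the shift in alpha minus beta, Atg7 minus control, was 0.00499, in dual minus control it was -0.29 and in dual minus Atg7 -0.29. Over embryonic genes alone, a choice made after seeing the data, it was 0.68 and 0.86, and with their several-symbol probe sets 0.21, 0.086 and -0.12. The departure from additivity needs all groups, so it was not run on fewer.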
